A study of Caenorhabditis elegans with 24 samples.

Results

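The genes described here are the amino acid transporter genes aat-1, aat-2, aat-3, aat-4, aat-5, aat-6, aat-7 and aat-9 of C. elegans, 8 of the 46778 genes in the count table. They were taken by name, and the set was chosen on measured values, because aat-4, aat-6 and aat-7 had lower RNA levels in unc-1(vlt10) mutants than in 40Q animals. The comparison of unc-1(vlt10) with 40Q is therefore given for these genes as a description, without a test. All 8 genes passed the filter on low counts, aat-7 through its reads in the other 3 genotypes, since unc-1(vlt10) libraries held at most 2 of its reads. A further gene with the same class name, aat-8, had 1 to 10 reads per library and did not pass.

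RNA was sequenced from pooled whole young adults grown at 20 °C, with 6 biological replicates for each of 4 genotypes. These were 40Q; unc-1(vlt10) mutants, 40Q; nhr-1(vlt16) mutants and the double mutants that carry both alleles, and the 40Q strain alone. All 4 genotypes, the 40Q animals included, carry rmIs133, a transgene in which the unc-54 promoter expresses a stretch of 40 glutamines fused to YFP in body wall muscle, so that 40Q is not a strain free of it. The vlt10 allele, a premature stop in unc-1, came from a mutagenesis screen, and vlt16 is a nonsense change placed in nhr-1 by CRISPR. Each genotype is 1 strain, so that a difference between genotypes cannot be told apart from other differences between the strains. Because whole animals were sequenced, fewer cells of a type and less RNA per cell cannot be told apart. The libraries held 19098458 to 30467364 reads on genes. The double mutants were sequenced more deeply, with a median of 27525192 reads against 21474733 in unc-1(vlt10), 21993626 in nhr-1(vlt16) and 21830937 in 40Q. Levels of unc-1 and nhr-1 RNA followed the labels: unc-1 averaged 1.09 ± 0.267 CPM (read counts scaled to a common library size) in the unc-1(vlt10) animals and 0.903 ± 0.079 CPM in double mutants, against 6.36 ± 0.856 CPM in the nhr-1(vlt16) animals and 8.13 ± 1.28 CPM in 40Q animals (SD, n = 6 each). For nhr-1 the level was 14.3 ± 1.82 CPM in double mutants and 14.8 ± 1.82 CPM in the nhr-1(vlt16) animals, against 25.6 ± 2.70 CPM in the unc-1(vlt10) animals and 28.1 ± 1.90 CPM in 40Q animals.

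The aat genes encode the catalytic light subunits of amino acid exchangers and their relatives, membrane proteins that carry amino acids across the cell surface. In animals many such light subunits reach the membrane bound to a glycoprotein heavy subunit, encoded in C. elegans by atgp-1 and atgp-2. AAT-1 and AAT-3 move amino acids when made together with a heavy subunit, whereas AAT-9 needs none and carries aromatic amino acids. AAT-6 lies at the luminal membrane of the intestine, where the PDZ domain protein NRFL-1 binds it. UNC-1 is a stomatin-like protein of neurons and muscle, and NHR-1 is a nuclear hormone receptor, a DNA-binding regulator of transcription.

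The 8 genes lie at separate places in the genome (WBcel235). On chromosome I are aat-5 (WBGene00000006, 2571740 to 2576020, minus strand) and aat-9 (WBGene00000010, 11388682 to 11396662, minus strand). Chromosome II holds aat-7 (WBGene00000008, 1386870 to 1391639, plus strand). Chromosome IV holds aat-4 (WBGene00000005, 6272529 to 6275721, minus strand) and aat-1 (WBGene00000002, 9599178 to 9601695, minus strand). On chromosome V are aat-2 (WBGene00000003, 9244402 to 9246360, minus strand) and aat-6 (WBGene00000007, 11466842 to 11470663, minus strand), and on chromosome X is aat-3 (WBGene00000004, 2552260 to 2557736, plus strand). The 3 genes that were lower in unc-1(vlt10) are thus on 3 different chromosomes, none of them the X chromosome that carries unc-1, nhr-1 and the transgene. In Ensembl annotation the longest coding sequences run over 483 to 541 codons in 4 to 12 exons. Only aat-9 overlaps another protein-coding gene, png-1 on the opposite strand, with 70 bases of exon in common. Whether reads were counted by strand is not given in the sources used here, so a few reads over that stretch could belong to either gene.

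Read levels were CPM after TMM scaling, which sets each library to a common depth. For aat-7, the unc-1(vlt10) libraries held 1, 2, 0, 1, 1 and 2 reads, and the library without a read was replicate 3, whose depth allows a level of up to 0.145 CPM (3 reads). The double mutants held 39, 43, 49, 30, 26 and 45 reads, the nhr-1(vlt16) libraries 28, 26, 33, 31, 32 and 29 reads, and the 40Q libraries 25, 28, 30, 30, 25 and 23 reads. The unc-1(vlt10) libraries were thus apart from all 18 others, and the other 3 genotypes overlapped. Over the group, 7 reads in unc-1(vlt10) stood against 161 reads in 40Q, a ratio of 0.0414 after scaling for depth (95% exact interval 0.0164 to 0.0872, counting error only). The mean level was 0.0512 ± 0.0317 CPM in the unc-1(vlt10) animals and 1.27 ± 0.179 CPM in 40Q animals (SD, n = 6 each).

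For aat-6, which encodes the transporter of the intestinal lumen, the unc-1(vlt10) libraries ranged over 2.05 to 2.75 CPM with a median of 2.60 CPM. The double mutants ranged over 7.70 to 11 CPM (median 9.40 CPM), nhr-1(vlt16) over 7.27 to 9.39 CPM (median 8.29 CPM) and 40Q over 7.60 to 9.42 CPM (median 8.09 CPM). All unc-1(vlt10) libraries lay below all 18 others, and the other 3 genotypes overlapped, with the double mutants reaching highest.

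For aat-4, the unc-1(vlt10) libraries ranged over 1.59 to 2.49 CPM with a median of 2.04 CPM. The double mutants ranged over 4.59 to 5.88 CPM (median 5.48 CPM), nhr-1(vlt16) over 5.13 to 6.26 CPM (median 5.77 CPM) and 40Q over 5.03 to 6.86 CPM (median 5.52 CPM). Here too the unc-1(vlt10) libraries lay below all 18 others, while the other 3 genotypes overlapped each other.

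**Figure D1:**
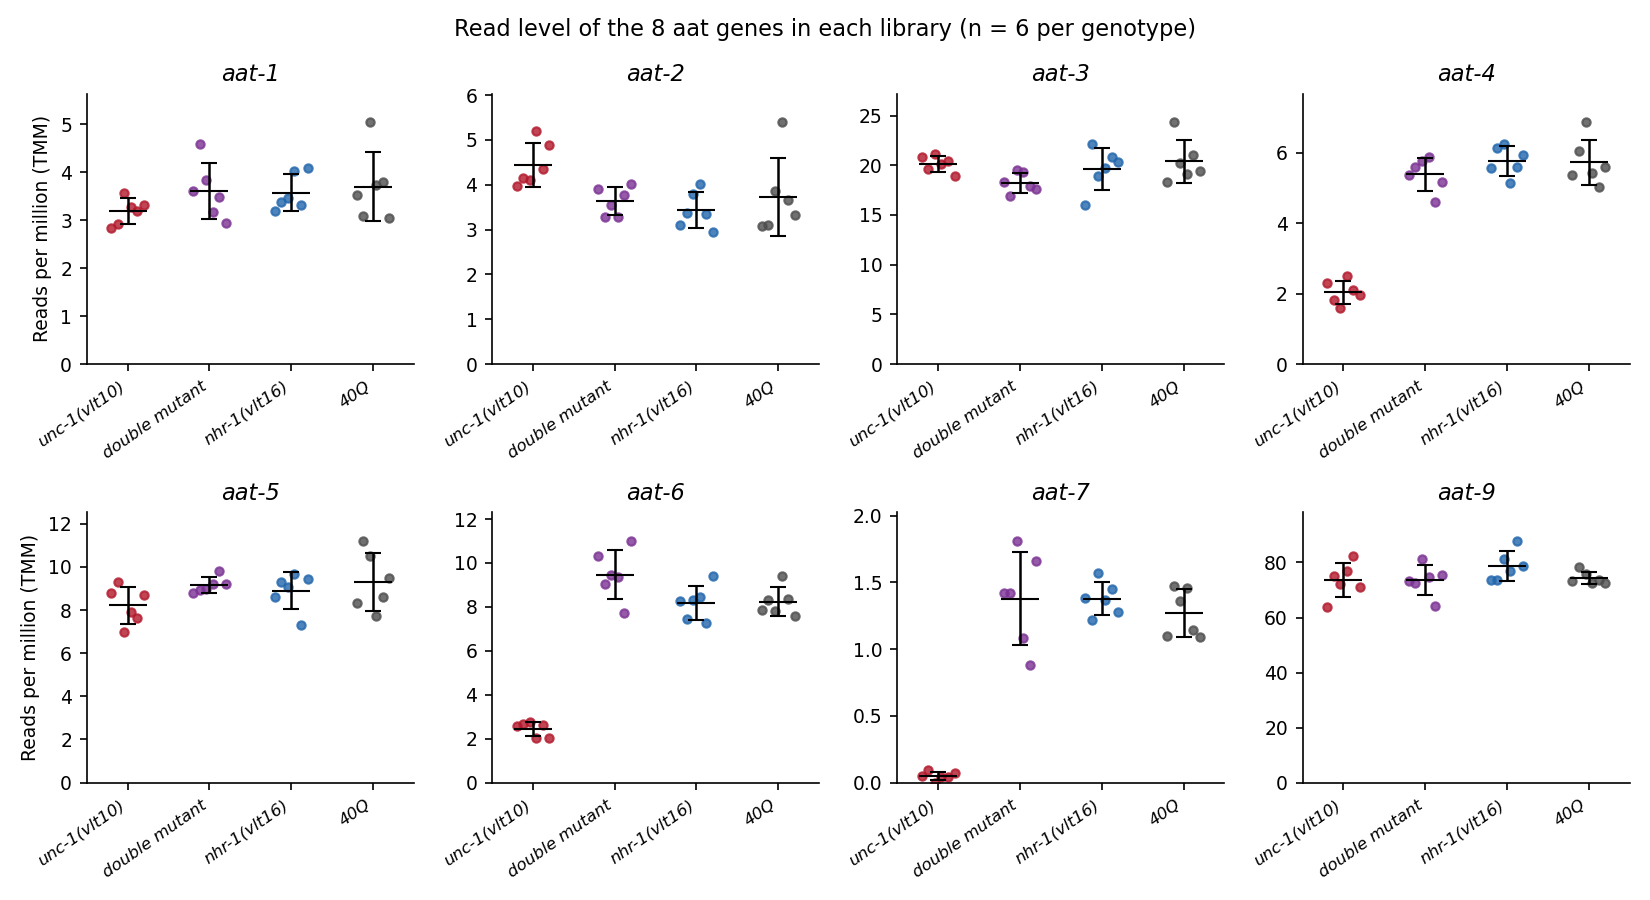
CPM after TMM scaling (y axis, from 0, a separate scale for each gene) of the 8 aat genes in each of the 24 libraries (points), by genotype (x axis), with the mean and SD of 6 libraries (black bars). For aat-4, aat-6 and aat-7 the unc-1(vlt10) points lie apart below those of the other 3 genotypes, and for the other 5 genes the genotypes overlap. The share of all genes with such a gap is not given here.

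On the log2 scale of the fitted model, the difference of unc-1(vlt10) from 40Q was -4.47 (SE 0.313) for aat-7, -1.75 (SE 0.101) for aat-6 and -1.48 (SE 0.106) for aat-4. These are 22.1, 3.37 and 2.79-fold lower levels in unc-1(vlt10), and the value for aat-7 rests on the 7 reads above. The other 5 genes had differences of -0.22 (SE 0.122) for aat-1, -0.18 (SE 0.0871) for aat-5, -0.02 (SE 0.0661) for aat-3, -0.01 (SE 0.0515) for aat-9 and 0.25 (SE 0.118) for aat-2. The smallest of the 3 large differences, that of aat-4, and the next, that of aat-1, were thus far apart, and aat-2 lay on the opposite side of 0. By these values 3 of the 8 genes were more than 2-fold lower. Over all 14865 genes tested, 3.26% were lower by more than 2-fold with an adjusted p below 0.05 (edgeR's quasi-likelihood test, Benjamini-Hochberg adjustment), and since the genes were chosen on this comparison nothing is read from their number. The median difference was -0.20 over the 8 genes and 0.02 over all genes tested, and for the same reason nothing is read from it.

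For the 5 genes without a large difference, every pair of genotypes overlapped. The share of all genes whose libraries lie apart between genotypes is not given here. Overlap and its absence are therefore descriptions, for these genes and for those named below. The aat-9 libraries ranged over 63.9 to 82.4 CPM in the unc-1(vlt10) animals (median 73.5 CPM), 64.2 to 81.2 CPM in double mutants (median 74.1 CPM), 73.7 to 87.8 CPM in the nhr-1(vlt16) animals (median 77.7 CPM) and 72.5 to 78.3 CPM in 40Q animals (median 73.4 CPM). This is the gene of the aromatic amino acid transporter, and it was the most highly expressed of the 8. For aat-3, a partner of the heavy subunits, the medians were 20.2 CPM in the unc-1(vlt10) animals, 18.1 CPM in double mutants, 20.0 CPM in the nhr-1(vlt16) animals and 19.8 CPM in 40Q animals. The medians of aat-1 lay between 3.23 CPM in the unc-1(vlt10) animals and 3.63 CPM in 40Q animals, those of aat-2 between 3.37 CPM in the nhr-1(vlt16) animals and 4.25 CPM in the unc-1(vlt10) animals, and those of aat-5 between 8.29 CPM in the unc-1(vlt10) animals and 9.17 CPM in the nhr-1(vlt16) animals. For aat-8, which was too low to test, the levels were 0.378 ± 0.0737 CPM in the unc-1(vlt10) animals, 0.238 ± 0.0522 CPM in double mutants, 0.268 ± 0.161 CPM in the nhr-1(vlt16) animals and 0.216 ± 0.104 CPM in 40Q animals (SD, n = 6 each).

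Whether the unc-1(vlt10) allele went with lower aat levels in animals that also carry nhr-1(vlt16) was examined by comparing double mutants with nhr-1(vlt16) mutants. The comparison on which the genes were chosen did not include these 12 libraries. The choice was made with earlier results of these data known, however, so the p-values are not those of genes picked blind. None of the 8 genes passed an adjusted p of 0.05 (edgeR's quasi-likelihood test, Benjamini-Hochberg adjustment over 14865 genes), where 19% of all genes were called. DESeq2 also called 0 of 8, and its share over all genes is not given here. At an unadjusted p below 0.05 there was 1 gene, aat-6, and it was on the side of a higher level. The share of all genes at that unadjusted threshold is not given here, so nothing is read from this count. For aat-6 the difference was 0.21 (SE 0.0848, adjusted p = 0.0861), with means of 9.46 ± 1.11 CPM in double mutants and 8.19 ± 0.763 CPM in the nhr-1(vlt16) animals (SD, n = 6 each). Without double mutant replicate 5 its adjusted p was 0.0291 and without nhr-1(vlt16) replicate 6 it was 0.0436, with a difference of 0.26 in both cases.

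For aat-4 the same comparison gave -0.10 (95% interval -0.29 to 0.09, adjusted p = 0.5), with means of 5.39 ± 0.470 CPM in double mutants and 5.77 ± 0.426 CPM in the nhr-1(vlt16) animals. For aat-7 it gave 0.00 (95% interval -0.34 to 0.34, adjusted p = 0.998), with means of 1.38 ± 0.348 CPM in double mutants and 1.38 ± 0.124 CPM in the nhr-1(vlt16) animals. The interval of aat-6 ran over 0.03 to 0.38. The other 5 genes had differences of 0.01 for aat-1, 0.08 for aat-2, -0.11 for aat-3, 0.04 for aat-5 and -0.10 for aat-9, with adjusted p between 0.191 and 0.963.

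Between the double mutants and unc-1(vlt10), a comparison that holds the unc-1(vlt10) libraries used in the choice and is given without a test, aat-7 was higher by 4.58 (SE 0.302) on the log2 scale, aat-6 by 1.95 (SE 0.0983) and aat-4 by 1.39 (SE 0.104). These 3 of 8 were more than 2-fold higher in double mutants, beside 3.59% of all genes. The other 5 genes lay between -0.29 for aat-2 and 0.18 for aat-1. The difference between the effects of unc-1(vlt10) with and without nhr-1(vlt16), the interaction, was 4.46 (SE 0.373) for aat-7, 1.96 (SE 0.132) for aat-6 and 1.38 (SE 0.141) for aat-4, and it lay between -0.17 for aat-2 and 0.23 for aat-1 in the other 5 genes. It rests on the same unc-1(vlt10) and 40Q libraries and is likewise given without a test, beside the 47.7% of all genes for which the interaction passed an adjusted p of 0.05.

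**Figure D2:**
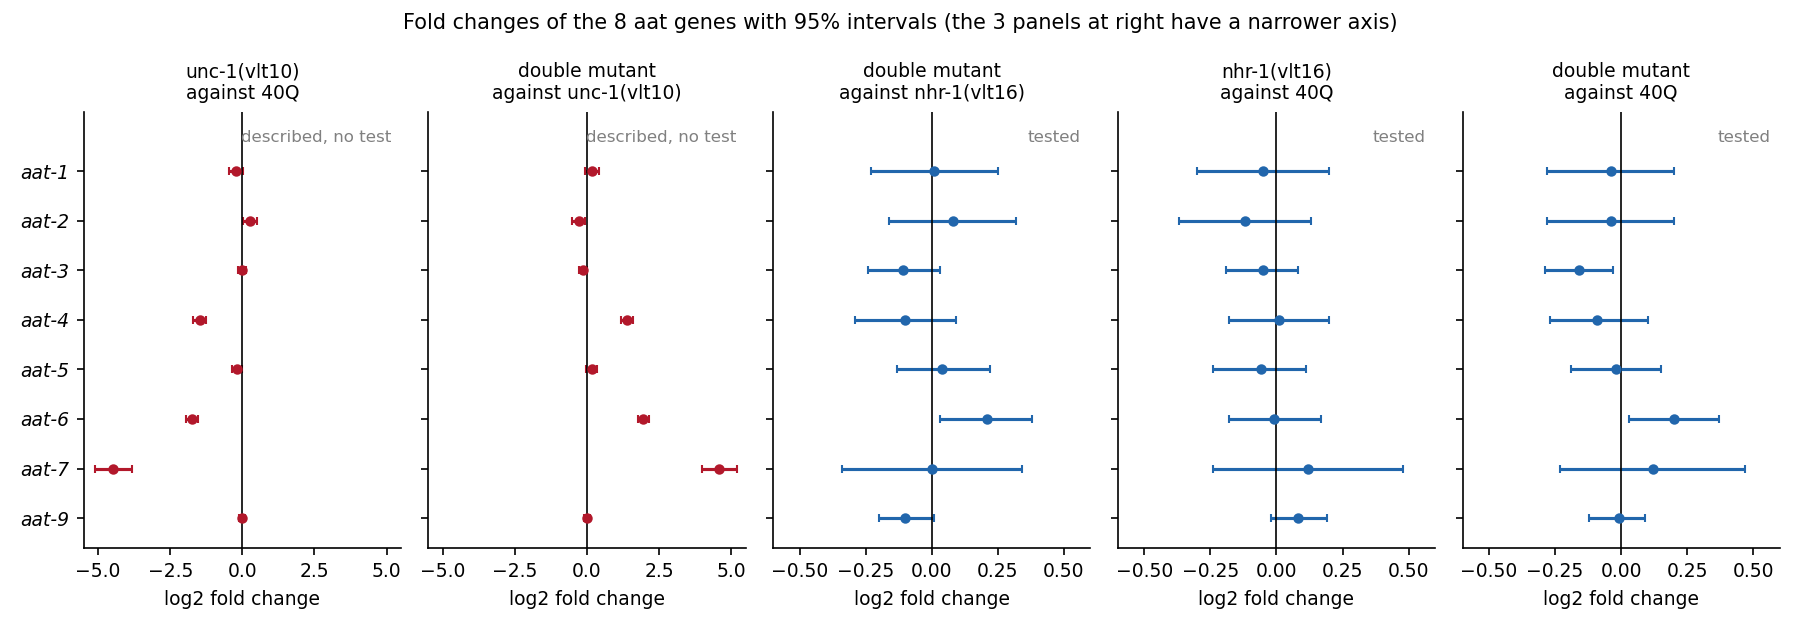
Log2 fold changes (x axis) of the 8 aat genes (y axis) in 5 comparisons between genotypes, as fitted values (points) with 95% intervals (bars). In the 2 panels at left, which hold the unc-1(vlt10) libraries, aat-4, aat-6 and aat-7 lie far from 0, whereas in the 3 panels at right, drawn on a narrower axis, every fitted value lies between -0.16 and 0.21.

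The nhr-1(vlt16) allele alone was compared with 40Q, and so were the double mutants. Both comparisons share the 40Q libraries with each other and with the comparison that chose the genes. For nhr-1(vlt16) against 40Q, 0 of 8 genes passed (edgeR's quasi-likelihood test, Benjamini-Hochberg adjustment), where 42.5% of all genes were called. None of the 8 had an unadjusted p below 0.05 in that test, and DESeq2 called 0. The shares of all genes by these 2 measures are not given here. The difference was 0.01 (95% interval -0.18 to 0.20) for aat-4, -0.01 (-0.18 to 0.17) for aat-6 and 0.12 (-0.24 to 0.48) for aat-7. The other 5 genes lay between -0.12 for aat-2 and 0.08 for aat-9. On the deposited FPKM values, a read level per length of gene, aat-9 differed by 0.11 on the log2(FPKM + 0.1) scale, with 38.8 ± 2.23 FPKM in the nhr-1(vlt16) animals and 35.9 ± 0.949 FPKM in 40Q animals (exact two-sided permutation test, unadjusted p = 0.00866, 1 of 24 such tests on these genes).

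For double mutants against 40Q, 0 of 8 genes passed with edgeR's quasi-likelihood test and Benjamini-Hochberg adjustment, where 32.2% of all genes were called. DESeq2 called 0 of 8, and its share over all genes is not given here. At an unadjusted p below 0.05 there were 2 genes, where the share of all genes is not given and nothing is read from the count. Of these aat-6 had a difference of 0.20 (SE 0.0849, adjusted p = 0.0698), with means of 9.46 ± 1.11 CPM in the double mutants and 8.23 ± 0.653 CPM in the 40Q animals, and aat-3 a difference of -0.16 (SE 0.0654, adjusted p = 0.0619), with means of 18.2 ± 1.01 CPM in the double mutants and 20.4 ± 2.12 CPM in 40Q animals (SD, n = 6 each). Both calls moved with single libraries. Without double mutant replicate 5 the adjusted p of aat-6 was 0.0201, and with scaling by total counts alone it was 0.0240. The adjusted p of aat-3 was below 0.05 in 17 of 24 fits that left out 1 library, at its lowest 0.0194 without 40Q replicate 1. These were the fits without any of the 6 unc-1(vlt10) or the 6 nhr-1(vlt16) libraries, without double mutant replicate 3 or 4, or without 40Q replicate 1, 4 or 6. For aat-4 the difference was -0.09 (95% interval -0.27 to 0.10) and for aat-7 it was 0.12 (-0.23 to 0.47). The other 4 genes lay between -0.04 and -0.01.

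Levels of different genes were compared in FPKM, which is per length of gene. In all 4 genotypes aat-9 was the highest, at 37 ± 2.92 FPKM in the unc-1(vlt10) animals, 36.8 ± 2.28 FPKM in double mutants, 38.8 ± 2.23 FPKM in the nhr-1(vlt16) animals and 35.9 ± 0.949 FPKM in 40Q animals (SD, n = 6 each). It made up on average 60.8% of the summed FPKM of the 8 genes in the unc-1(vlt10) animals, 55.1% in double mutants, 56.8% in nhr-1(vlt16) and 54.8% in 40Q. The second was aat-3, at 11.8 ± 0.455 FPKM in the unc-1(vlt10) animals and 11.4 ± 1.17 FPKM in 40Q animals, and in every genotype all its libraries lay apart from those of its neighbours in the order.

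Below these, the order differed with the genotype. In unc-1(vlt10) it ran aat-5 (4.98 ± 0.562 FPKM), aat-2 (2.60 ± 0.280 FPKM), aat-1 (1.77 ± 0.133 FPKM), aat-6 (1.45 ± 0.188 FPKM), aat-4 (1.23 ± 0.195 FPKM) and aat-7 (0.0348 ± 0.0217 FPKM). There the libraries of aat-1 overlapped those of aat-6, and those of aat-6 overlapped those of aat-4. In double mutants aat-6 (5.56 ± 0.649 FPKM) and aat-5 (5.5 ± 0.308 FPKM) overlapped below aat-3, and in nhr-1(vlt16) aat-5 (5.27 ± 0.543 FPKM) and aat-6 (4.75 ± 0.471 FPKM) did. In 40Q the order was aat-5 (5.40 ± 0.771 FPKM), aat-6 (4.68 ± 0.379 FPKM), aat-4 (3.29 ± 0.363 FPKM), aat-2 (2.10 ± 0.494 FPKM), aat-1 (1.97 ± 0.379 FPKM) and aat-7 (0.825 ± 0.115 FPKM). There the libraries of aat-5 and aat-6 overlapped, as did those of aat-4 and aat-2 and those of aat-2 and aat-1. Between double mutants, nhr-1(vlt16) and 40Q the order of the mean levels differed only in the place of aat-5 and aat-6.

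Added up, aat-4, aat-6 and aat-7 came to 2.72 ± 0.187 FPKM in the unc-1(vlt10) animals, against 9.69 ± 0.908 FPKM in double mutants, 9.05 ± 0.566 FPKM in the nhr-1(vlt16) animals and 8.80 ± 0.533 FPKM in 40Q animals. They were 4.47% of the summed FPKM of the 8 genes in unc-1(vlt10) and 13.4% in 40Q. The sum over all 8 genes was 60.9 ± 2.72 FPKM in the unc-1(vlt10) animals, 66.7 ± 2.96 FPKM in double mutants, 68.2 ± 2.42 FPKM in the nhr-1(vlt16) animals and 65.7 ± 2.91 FPKM in 40Q animals (SD, n = 6 each).

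The heavy subunits and the binding partner of AAT-6 were measured in the same fit, and they were not used to choose the aat genes. In unc-1(vlt10) against 40Q all 3 were lower, beside 22.6% of all genes tested. For nrfl-1 the libraries ranged over 45.1 to 47.6 CPM in the unc-1(vlt10) animals, with a median of 46.1 CPM, and over 75.5 to 84.5 CPM in 40Q animals, with a median of 82.3 CPM. They did not overlap, and nrfl-1 fell by 0.82 on the log2 scale (difference -0.82, SE 0.0385, edgeR adjusted p = 1.8e-17). The heavy subunit gene atgp-2 differed by -0.45 (SE 0.0565, adjusted p = 5.8e-08) and atgp-1 by -0.15 (SE 0.0524, adjusted p = 0.0199). In double mutants against nhr-1(vlt16), nrfl-1 differed by 0.11 (SE 0.0375, edgeR adjusted p = 0.0449), and the adjusted p of atgp-1 and atgp-2 were 0.257 and 0.347. Calls among these partners were also made against 40Q in the nhr-1(vlt16) animals and in double mutants, where no aat gene passed. In nhr-1(vlt16) against 40Q, nrfl-1 was lower (difference -0.34, SE 0.0377, edgeR adjusted p = 2.9e-08) and so was atgp-1 (-0.34, SE 0.0530, edgeR adjusted p = 6.6e-06), while atgp-2 differed by -0.09 (edgeR adjusted p = 0.196). Of all genes 22% were lower there. In double mutants against 40Q all 3 were lower, beside 17.3% of all genes. The differences were -0.23 for nrfl-1 (edgeR adjusted p = 1.3e-05), -0.25 for atgp-1 (0.000332) and -0.17 for atgp-2 (0.0181). These comparisons share the 40Q libraries.

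Peptide transporters supply amino acids as di- and tripeptides. The level of pept-1, which encodes the oligopeptide transporter of the intestine, was 18.6 to 23.8 CPM in the unc-1(vlt10) animals (median 20.7 CPM) and 75.2 to 96.3 CPM in 40Q animals (median 93.8 CPM). The groups did not overlap, and pept-1 was lower by a log2 difference of -2.12 (SE 0.0710, edgeR adjusted p = 4e-21). In double mutants it reached 60.5 to 84.2 CPM (median 76.8 CPM), against 59.2 to 71.1 CPM in the nhr-1(vlt16) animals (median 66.6 CPM), a difference of 0.19 (SE 0.0636, edgeR adjusted p = 0.0359). Both stood below 40Q, by a difference of -0.27 (SE 0.0627, edgeR adjusted p = 0.00149) in double mutants and -0.45 (SE 0.0639, edgeR adjusted p = 1.6e-06) in nhr-1(vlt16). Of its relatives, pept-2 differed by -0.21 (SE 0.0613, edgeR adjusted p = 0.00467) and pept-3 by 0.40 (SE 0.0719, edgeR adjusted p = 2.6e-05) in unc-1(vlt10) against 40Q. Neither passed in double mutants against nhr-1(vlt16) (edgeR adjusted p = 0.776 for pept-2 and 0.101 for pept-3).

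Over all 6 lists of amino acid transport and sensing genes other than the aat genes (heavy subunits with nrfl-1, peptide transporters, glutamate transporters, snf transporters, slc-36 transporters and the amino acid sensing pathway), 41 of 43 genes could be tested. The slc-36 list also held skat-1 and unc-47, and whether each listed gene carries or senses amino acids was not examined here. In unc-1(vlt10) against 40Q, 16 of the 41 were lower (39.0%, beside 22.6% of all genes tested) and 5 were higher (12.2%, beside 25.1%), by edgeR's quasi-likelihood test. Their median difference was -0.09, beside 0.02 over all genes. More than 2-fold lower were 2 of 41, beside 3.26% of all genes, namely pept-1 and slc-36.2, which was just past the threshold at 2.02-fold. More than 2-fold higher was 1 of 41, slc-36.5, beside 2.68% of all genes. Both slc-36 genes belong to the family of proton-coupled amino acid transporters. For slc-36.2 the means were 4.00 ± 0.710 CPM in the unc-1(vlt10) animals and 8.06 ± 0.197 CPM in 40Q animals, a difference of -1.01 (SE 0.0937, edgeR adjusted p = 1.3e-10). For slc-36.5 they were 16.5 ± 1.37 CPM in the unc-1(vlt10) animals and 6.29 ± 1.31 CPM in 40Q animals, a difference of 1.38 (SE 0.117, edgeR adjusted p = 1.7e-11). Of the sensing list, 3 genes of 12 were lower (25%, beside 22.6% of all genes) and 2 were higher (16.7%, beside 25.1%). The largest difference was that of sesn-1, a sestrin, at -0.95 (SE 0.0597, edgeR adjusted p = 1.6e-14), named here after its value was seen.

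In double mutants against nhr-1(vlt16), 5 of the 41 genes were higher (12.2%, beside 9.47% of all genes) and 1 was lower (2.44%, beside 9.54%) by edgeR's quasi-likelihood test, and none of the 41 changed by more than 2-fold. Neither slc-36.2 (difference -0.19, edgeR adjusted p = 0.123) nor slc-36.5 (0.14, edgeR adjusted p = 0.497) passed. In nhr-1(vlt16) against 40Q, 14 of the 41 were lower (34.1%, beside 22% of all genes) and 4 were higher (9.76%). In either direction this is 43.9%, beside 42.5% of all genes. In double mutants against 40Q, 10 of the 41 were lower (24.4%, beside 17.3% of all genes) and 3 were higher (7.32%). There it is 31.7% in either direction, beside 32.2% of all genes.

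**Figure D3:**
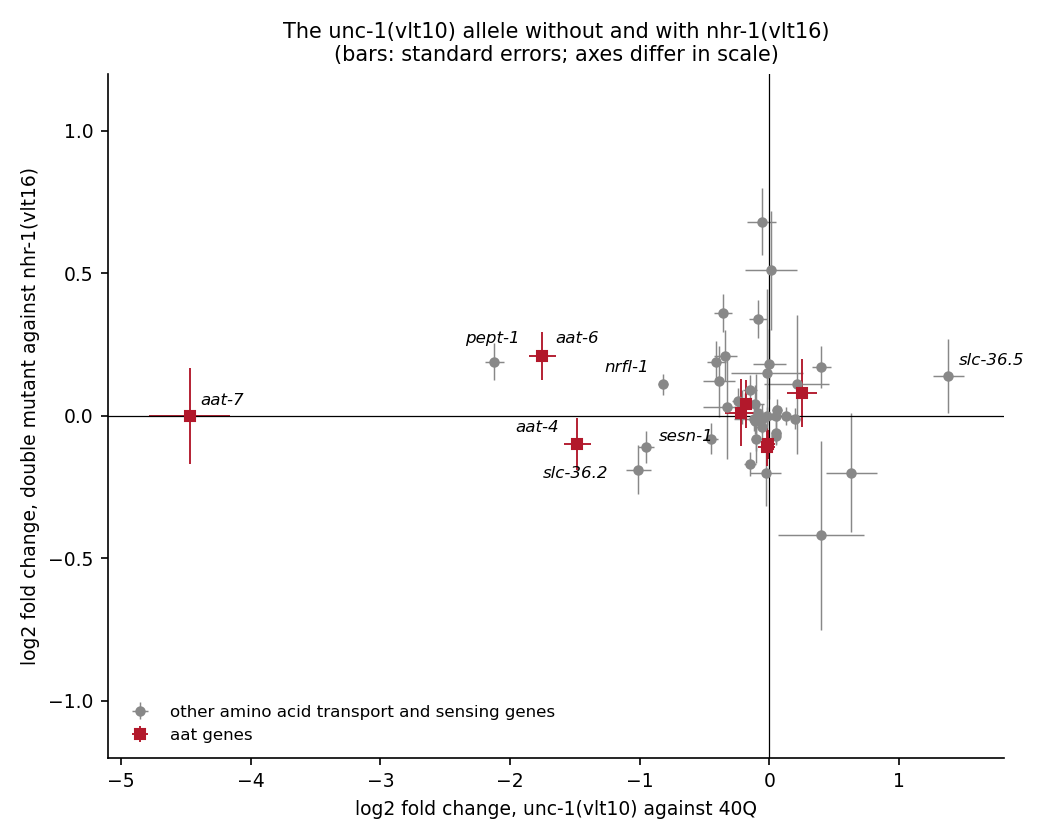
Log2 fold change of unc-1(vlt10) against 40Q (x axis) and of double mutants against nhr-1(vlt16) (y axis, a narrower scale) for the 8 aat genes (red squares) and 41 other amino acid transport and sensing genes (grey circles), with standard errors as bars. The comparisons share no library. The genes aat-7, pept-1, aat-6 and aat-4 lie far to the left, at -4.47, -2.12, -1.75 and -1.48, and within 0.21 of 0 on the y axis.

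The intestine, where AAT-6 and PEPT-1 lie, was followed by a list of 8 marker genes that includes pept-1. None of the markers was at 0 in any genotype. In unc-1(vlt10) against 40Q, 5 of the 8 were lower (pept-1, act-5, ifb-2, vha-6 and elt-2), beside 22.6% of all genes, and 1 was higher (elt-7), beside 25.1%, by edgeR's quasi-likelihood test. By the same test, 5 of the 8 were lower in double mutants against 40Q (beside 17.3% of all genes) and 6 of the 8 in nhr-1(vlt16) against 40Q (beside 22%). Their summed level was 1931 to 2093 CPM in the unc-1(vlt10) animals, against 2174 to 2646 CPM in double mutants, 2145 to 2297 CPM in the nhr-1(vlt16) animals and 2270 to 2594 CPM in 40Q animals. The largest differences in unc-1(vlt10) against 40Q other than that of pept-1 were -0.69 (SE 0.0413) for act-5, an actin of the microvilli, and -0.66 (SE 0.0435) for ifb-2, an intermediate filament. The part of these markers in the aat levels was not tested. Body wall muscle markers summed to 2093 to 2199 CPM in the unc-1(vlt10) animals, 1892 to 2321 CPM in double mutants and 1845 to 2031 CPM in the nhr-1(vlt16) animals, against 2240 to 2546 CPM in 40Q animals, with none at 0. By edgeR's quasi-likelihood test, 4 of these 6 markers were lower in unc-1(vlt10) against 40Q (beside 22.6% of all genes) and 1 was higher (beside 25.1%). In nhr-1(vlt16) against 40Q, 6 of 6 were lower by the same test (beside 22%). Of the 6 hypodermis markers, also with none at 0, 1 was lower in unc-1(vlt10) against 40Q (the adult collagen col-19, at a mean of 1129 CPM in the unc-1(vlt10) animals and 1598 CPM in 40Q animals), 1 was higher (dpy-7, by 0.70, edgeR adjusted p = 0.00266) and 4 did not pass. Of the hypodermis list 16.7% was thus lower and 16.7% higher, beside 22.6% and 25.1% of all genes. The part of the muscle and hypodermis markers was not tested either. Sperm markers summed to 22.4 to 25.3 CPM in nhr-1(vlt16), against 31.4 to 42.9 CPM in 40Q animals and 30.4 to 37.3 CPM in double mutants. In double mutants against nhr-1(vlt16), 7 of 7 sperm markers were higher (beside 9.47% of all genes). There 5 of 8 germline and oocyte markers were lower (beside 9.54%) and 0 were higher, by edgeR's quasi-likelihood test. Neuron markers summed to 510 to 531 CPM in unc-1(vlt10) and 478 to 547 CPM in 40Q. They summed to 416 to 465 CPM in double mutants and 436 to 453 CPM in nhr-1(vlt16). In unc-1(vlt10) against 40Q, 4 of these 8 were lower (beside 22.6% of all genes) by the same test. The 1 higher marker (beside 25.1%) was snb-1, the most highly expressed of the 8, at means of 272 CPM and 234 CPM. Against 40Q, 6 of 8 were lower in nhr-1(vlt16) (beside 22%) and 5 of 8 in double mutants (beside 17.3%), with 0 higher in both. The part of the sperm, oocyte and neuron markers was not tested either.

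For each of aat-4, aat-6 and aat-7, the 3 genes most like it over the 24 libraries were taken from all other genes tested, by the root mean square difference of log2 CPM after subtraction of each gene's mean. Most like aat-4 were vit-3 (0.150), cth-2 (0.150) and vit-4 (0.152). The vit genes encode yolk proteins, made in the intestine, and vit-3 and vit-4 are so alike in sequence that reads may be shared between them. The level of vit-3 was 571 ± 21 CPM in the unc-1(vlt10) animals, 1340 ± 133 CPM in double mutants, 1447 ± 41.9 CPM in the nhr-1(vlt16) animals and 1457 ± 91.4 CPM in 40Q animals. That of cth-2, a cystathionine gamma-lyase relative, was 143 ± 11.7 CPM in the unc-1(vlt10) animals, 404 ± 23.8 CPM in double mutants, 393 ± 17.0 CPM in the nhr-1(vlt16) animals and 385 ± 26.3 CPM in 40Q animals (SD, n = 6 each).

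Most like aat-6 were F42A8.1 (0.154), Y58A7A.1 (0.154) and ZC416.6 (0.169), and most like aat-7 were R07E5.4 (0.318), C40H1.7 (0.329) and F53F1.4 (0.394). F42A8.1 had 25.1 ± 2.13 CPM in the unc-1(vlt10) animals and 86.4 ± 6.79 CPM in 40Q animals, and R07E5.4 had 2.37 ± 0.607 CPM in the unc-1(vlt10) animals and 19.3 ± 1.39 CPM in 40Q animals. Between the aat genes themselves, aat-4 and aat-6 differed by 0.292, aat-6 and aat-7 by 0.755 and aat-4 and aat-7 by 0.890. The genes named above have the smallest differences among all genes tested. A fixed pair would nearly always differ by more, so nothing is read from that. All these genes share the 24 libraries and their depths, and the measure is a description with no test.

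**Figure D4:**
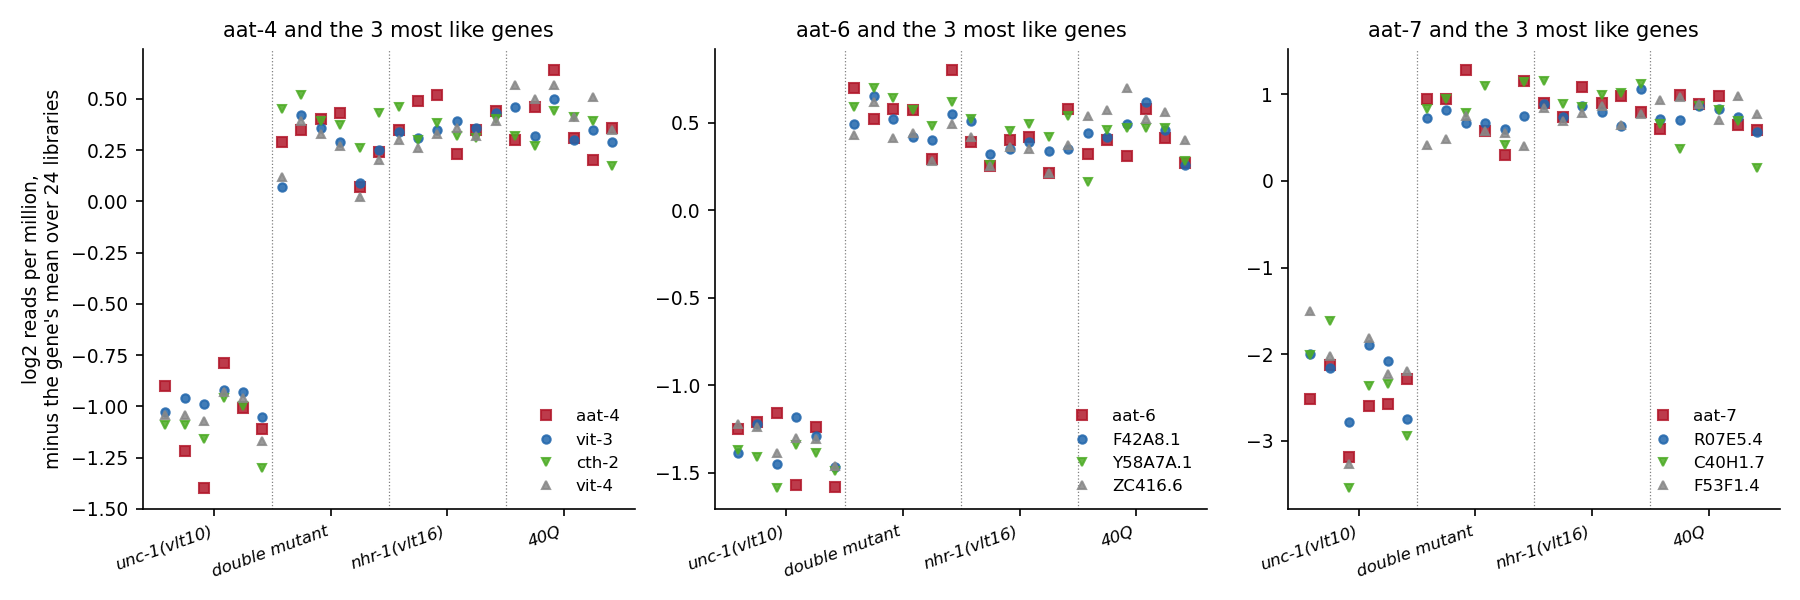
Log2 CPM minus the mean of each gene over the 24 libraries (y axis) for aat-4, aat-6 and aat-7 (red squares, one panel each) and the 3 genes most like each (other symbols), by library, grouped by genotype (x axis). In each panel the 6 unc-1(vlt10) libraries lie below 0 and the 18 others above it.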

How the data were processed

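The authors aligned reads to WBcel235 with HISAT2 2.0.5 and counted them per gene with HTSeq 0.6.1 (versions from the submitters' processing notes). The deposited tables hold raw counts and, by the authors, FPKM. The strand setting and annotation release are not given in the sources used here. A further 6 deposited tables of the authors' own comparisons, which hold fold changes and p-values, were not used.

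Libraries were assigned by their labels. Counts of all 24 libraries were fitted together in R 4.3.3 with edgeR 4.0.16 (TMM, filterByExpr, quasi-likelihood F-test, Benjamini-Hochberg adjustment over 14865 genes). A gene was called at an adjusted p below 0.05, and calls above 2-fold are given beside it. The edgeR p-values weigh a difference between genotypes against the spread between replicates, which the labels call biological. That spread was estimated from all 24 libraries together. Log2 CPM for likeness used a prior count of 2. FPKM was compared by exact two-sided permutation tests (924 arrangements, smallest p 0.00216) on log2(FPKM + 0.1) in Python (3.11.15; scipy 1.17.1, pandas 2.3.3, numpy 2.4.6). Intervals are at 95%, and the floor for a count of 0 is 3 reads. The fit was tested on simulated counts, and figures were drawn with matplotlib 3.10.9. Positions come from Ensembl release 115, of the same build. No replicates of a genotype agreed within sampling noise, the lowest chi-square per gene over 60 pairs being 1.94.

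The genes and lists were chosen with earlier results of these data known. All 8 genes and aat-8 were named, with atgp-1, atgp-2, nrfl-1 and pept-1 to pept-3, any other listed gene changed over 2-fold in unc-1(vlt10) against 40Q or double mutants against nhr-1(vlt16), and the 3 genes most like aat-4, aat-6 and aat-7. The alternatives were DESeq2 1.42.0, RLE size factors, total counts alone, no filter, replicate number as a block, at least 1 CPM in 6 or more libraries, only the 2 genotypes compared, FPKM with a pseudocount of 0.1 or 1, a fold change above 2, and each library left out.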

Additional observations from a re-analysis of the deposited data

Results flagged for a closer look

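Among the 8 aat genes in 4 genotypes, 1 of 32 sets of 6 libraries held a library far from the others, where chance flags about 1 in 20 sets. This was aat-2 in 40Q replicate 4, at 5.39 CPM, with the other 40Q libraries at 3.08 to 3.86 CPM. Without this library the difference of aat-2 was 0.37 for unc-1(vlt10) against 40Q, in place of 0.25, and -0.01 for nhr-1(vlt16) against 40Q, in place of -0.12.

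Of the 6 other transport genes named in every case (the heavy subunits, nrfl-1 and the peptide transporters), 5 had an effect of unc-1(vlt10) that differed between animals with and without nhr-1(vlt16), by the interaction term of the same fit (edgeR's quasi-likelihood test, Benjamini-Hochberg adjustment), where 47.7% of all genes passed. The lists were chosen with earlier results of these data known, so the p-values are not those of genes picked blind. The interaction on the log2 scale was 2.30 for pept-1 (adjusted p = 2.5e-18), 0.92 for nrfl-1 (9.4e-15), 0.38 for atgp-2 (0.000222), 0.24 for atgp-1 (0.00957) and 0.24 for pept-2 (0.0201). For pept-3 it was -0.23 and did not pass (adjusted p = 0.0667). The interaction was 0.82 for slc-36.2 and -1.25 for slc-36.5, but both genes were named for their change in unc-1(vlt10) against 40Q, which is a term of the interaction, so these values are a description without a test.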

How the results depend on the processing

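The 3 lower genes in unc-1(vlt10) against 40Q and the 3 higher ones in double mutants against unc-1(vlt10) were 3 in all count fits and on FPKM with a pseudocount of 0.1, and 1 in both comparisons on FPKM with a pseudocount of 1, which understates changes of low genes. Leaving out each library gave 3 throughout. The count of aat genes called in double mutants against nhr-1(vlt16) and in double mutants against 40Q was 0, and 0 to 1 with libraries left out; in nhr-1(vlt16) against 40Q it stayed at 0. By unadjusted p on FPKM, with either pseudocount, it was 1 in each of these 3 comparisons (aat-6, aat-6 and aat-9), and with total counts alone it was 1 in double mutants against 40Q (aat-6). The lists held 21 called genes in unc-1(vlt10) against 40Q (21 to 25 with libraries left out) and 3 with a fold change above 2 as well.

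Values near 0 changed sign. For nhr-1(vlt16) against 40Q, aat-6 was 0.02 with total counts alone and on FPKM; for double mutants against 40Q, total counts alone gave 0.01 for aat-1, 0.01 for aat-2, 0.03 for aat-5 and 0.03 for aat-9, and FPKM 0.02, 0.03, 0.04 and 0.03 with a pseudocount of 0.1 and 0.01, 0.02, 0.03 and 0.03 with 1. With libraries left out, double mutants against nhr-1(vlt16) gave -0.07 to 0.07 for aat-1 and -0.01 to 0.08 for aat-5, nhr-1(vlt16) against 40Q gave -0.13 to 0.04 for aat-1, -0.05 to 0.05 for aat-4 and -0.07 to 0.01 for aat-6, and double mutants against 40Q gave -0.14 to 0.06 for aat-1, -0.11 to 0.08 for aat-2, -0.08 to 0.02 for aat-5 and -0.06 to 0.02 for aat-9. None of these values passed the test.

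Replicate numbers did not pair the libraries, since 6 of 36 same-numbered pairs correlated above 0.1 (median -0.031) and 3 of 24 libraries correlated best with their own number. With the replicate block, 0 of 8 genes were called in each of the 3 tested comparisons, 3 were over 2-fold in each described comparison and 21 listed genes were called. The depth limits aat-7 and aat-8 most, which have at most 49 and 10 reads per library.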
